A study of Mus musculus with 10 samples.

Results

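The 3 Pim kinases (Pim1, Pim2 and Pim3), Myc, the D cyclins Ccnd2 and Ccnd3 and the cyclin-dependent kinase inhibitor Cdkn1a were followed through 10 RNA-seq libraries of mouse regulatory T cells (Tregs). They are 7 of the 23992 gene symbols in the deposited tables and were chosen with earlier results of these data known. The 7 were picked by symbol as genes of growth control that the transcription factor STAT5 is known to induce. Each symbol was represented by the RefSeq transcript with the highest mean reads, and all 7 passed the filter on low counts in every comparison. All mice were C57BL/6J. Wild-type natural Tregs from spleen were stimulated through the T cell receptor with anti-CD3 and anti-CD28 for 24 h, either alone (TCR, 2 libraries) or together with thymic stromal lymphopoietin, TSLP (TCR + TSLP, 2 libraries). The other Tregs came from allergic lung tissue of OVA-immunized animals. Both lung groups carry Foxp3YFP-Cre, a Cre recombinase driven by the Foxp3 gene. By its label the control group carries this allele alone (3 libraries), and the Crlf2-deleted group carries Crlf2fl/fl as well (3 libraries). The genotype of the control lung group is labelled wild-type and that of the deleted group conditional Knock-out. Whether libraries of a group came from different animals or cultures is not stated, and the p-values then describe only the spread among these libraries, which may be technical.

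TSLP binds a receptor made of the Crlf2 and Il7r products, and its signal runs through JAK kinases to STAT5. Among the genes that STAT5 switches on in lymphocytes are the Pim genes. They encode serine/threonine kinases that are active once made, so that activity depends largely on the amount of protein, which was not measured here. Pim kinases phosphorylate substrates that favour survival and cap-dependent translation. Myc encodes the transcription factor that drives ribosome production, metabolism and cell growth. The D cyclins activate CDK4 and CDK6, which phosphorylate the retinoblastoma protein and open the way into S phase, and Cdkn1a encodes p21, which binds and restrains cyclin-CDK complexes and is a classical p53 target.

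On the GRCm38.p6 annotation Pim1 (NM_008842, 1753 bp) lies on chromosome 17 from 29490785 to 29496111, on the plus strand. Pim2 (NM_138606, 2041 bp) lies on chromosome X from 7878306 to 7883432 and Pim3 (NM_145478, 2419 bp) on chromosome 15 from 88862194 to 88865726, both on the plus strand. Myc (NM_001177352, 2399 bp, 1 of 4 transcripts listed) spans 61985341 to 61990361 on the plus strand of chromosome 15. Ccnd2 (NM_009829, 5771 bp) spans 127125162 to 127152188 on the minus strand of chromosome 6. Ccnd3 (NM_007632, 1979 bp, 1 of 3 transcripts) spans 47505051 to 47599689 and Cdkn1a (NM_007669, 1910 bp, 1 of 2) spans 29090979 to 29100722, both on the plus strand of chromosome 17. The spans are those of the genes, while the accessions and lengths are those of the transcripts counted. Values are those of whole transcripts, so exons and introns are not resolved.

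Promoter windows (250 bases before to 50 after a RefSeq start, GRCm38.p6) were matched for 5 of the 7 genes, in 8 windows, and none was matched for Myc or Ccnd2. Both windows of Pim1, the gene with the largest fold change with TSLP, are shown with the window of Cdkn1a that holds a p53 response element and, for comparison, that of Cish, a STAT5-induced gene outside the 7. All are read 5′ to 3′ on the plus strand, with motif matches in capitals.
Pim1 chr17:29490535-29490834: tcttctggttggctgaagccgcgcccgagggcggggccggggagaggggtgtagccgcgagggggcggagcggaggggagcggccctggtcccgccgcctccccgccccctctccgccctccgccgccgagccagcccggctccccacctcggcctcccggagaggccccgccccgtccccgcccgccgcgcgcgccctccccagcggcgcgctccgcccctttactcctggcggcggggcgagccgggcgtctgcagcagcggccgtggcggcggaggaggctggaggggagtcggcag
Pim1 chr17:29492835-29493134: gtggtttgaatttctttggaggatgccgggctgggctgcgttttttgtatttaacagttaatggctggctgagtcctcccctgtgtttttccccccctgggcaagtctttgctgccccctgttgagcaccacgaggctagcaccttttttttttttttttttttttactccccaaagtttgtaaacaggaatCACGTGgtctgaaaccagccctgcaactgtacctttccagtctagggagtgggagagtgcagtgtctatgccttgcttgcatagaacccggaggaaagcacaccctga
Cdkn1a chr17:29090729-29091028: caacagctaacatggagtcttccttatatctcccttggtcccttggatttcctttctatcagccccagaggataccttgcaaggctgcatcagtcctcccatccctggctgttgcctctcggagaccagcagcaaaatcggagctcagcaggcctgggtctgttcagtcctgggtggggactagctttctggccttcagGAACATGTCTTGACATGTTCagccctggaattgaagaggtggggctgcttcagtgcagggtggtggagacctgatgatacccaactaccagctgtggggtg
Cish chr9:107296409-107296708: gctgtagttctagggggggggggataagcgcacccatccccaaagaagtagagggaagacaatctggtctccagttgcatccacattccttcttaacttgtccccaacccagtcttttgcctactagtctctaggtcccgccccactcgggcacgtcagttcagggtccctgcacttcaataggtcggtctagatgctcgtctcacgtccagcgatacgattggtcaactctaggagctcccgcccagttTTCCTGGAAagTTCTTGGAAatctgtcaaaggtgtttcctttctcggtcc

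The letters TTCNNNGAA, a STAT motif that reads the same on both strands, occurred in 0 of the 8 windows of the 7 genes and in 8.3% of all 32851 promoter windows. They occurred in the Cish window as TTCCTGGAA and TTCTTGGAA. The E-box CACGTG, also its own reverse complement and the core letters that MYC-MAX dimers bind, was in 7.15% of all windows. It was in 1 window of the 7 genes, the second one of Pim1, at offset -58 from the start. A p53 response element with at most 1 mismatch (searched on both strands, after the windows had been seen) was in 29 of all windows, 0.0883%. Among those was the Cdkn1a window, which holds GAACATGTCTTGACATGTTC at offset -51. The downstream Cdkn1a window, from 29093519 to 29093818, held 0 such elements. Which of these starts the counted Cdkn1a transcript uses was not determined. A match is a description of these letters and not evidence of a bound site. The first Pim1 window had the highest GC content of the 8, 81.3%, and the second the lowest, 49.0%.

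The libraries differed in depth and in other cells' transcripts. Reads assigned to genes were 27237313 to 51671901 in spleen and 1439675 to 18349039 in lung, where control library 2 was the shallowest. Levels are CPM, the reads of a gene as a share of its library's counted reads, scaled by TMM over all 10 libraries, unless given as the deposited RPKM, which also divides by transcript length. Crlf2, the deleted gene, was at 106 ± 25 CPM in control and 6.03 ± 2.57 in Crlf2-deleted lung Tregs (SD, n = 3 each; log2 fold change -4.16, SE 0.36, edgeR adjusted p = 0.00465). Foxp3 was present in all 10 libraries. Markers of other cells were not evenly spread over the lung libraries. Lung epithelial markers (8 genes) summed to 15300 to 73800 CPM in control and 2170 to 16900 in Crlf2-deleted libraries, against 13.5 to 17.1 in spleen, where Sftpa1, Sftpc and Scgb1a1 were at 0. Control library 3 stood apart: its erythroid markers (5 genes) summed to 105000 CPM, against 1150 to 4230 in the other lung libraries. Its B cell, NK cell and myeloid markers stood at 308, 250 and 4430 CPM, and the highest values elsewhere in lung were 23.9, 13.8 and 1020. Its Treg and T cell markers summed to 1780 CPM, below the 2850 to 3540 of the other lung libraries. The part of these other transcripts in the levels below was not tested, and in such bulk RNA fewer cells of a type and less RNA per cell cannot be told apart.

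TSLP added to T cell receptor stimulation raised all 3 Pim transcripts, Myc and Cdkn1a in spleen Tregs, while both D cyclins stayed below the threshold. Pim1 rose most, 2.22-fold, followed by Myc at 1.85-fold, Pim3 at 1.64-fold, Cdkn1a at 1.52-fold and Pim2 at 1.20-fold. This comparison asked what the cytokine adds to a cultured, activated Treg. The calls were numerous throughout: of 13214 genes tested, 45.8% passed an adjusted p of 0.05 (22.7% higher and 23.1% lower), and in 75.4% the groups did not overlap (38.1% higher and 37.3% lower with TSLP). Of the 7 genes, 5 were called higher and 0 lower, and all 7 were higher in both TSLP libraries. Their median log2 fold change was 0.61, where that of all genes tested was 0.01 with quartiles at -0.44 and 0.35. Because the 7 were chosen with earlier results of these data known, this contrast is a description and not an independent test.

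Pim1 stood at 103 and 110 CPM with T cell receptor stimulation alone and at 234 and 254 once TSLP was added, so that the lower TSLP library lay far above the higher TCR library. The log2 fold change was 1.15 (SE 0.09, 95% interval 0.94 to 1.35, adjusted p = 0.000159). Pim3, the least abundant of the 3 kinases in these cultures, went from 37.2 and 42.9 to 64.2 and 71.2 CPM (0.71, SE 0.11, adjusted p = 0.0015). For Pim2 the values were 182 and 205 CPM without TSLP and 241 and 240 with it. Both TSLP libraries lay above both TCR libraries, and the call was a near one (0.26, SE 0.09, adjusted p = 0.0441). It was lost without TSLP library 1 or 2 (adjusted p = 0.308 and 0.258).

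Because RPKM divides by transcript length, it lets the 3 kinases be set beside each other. Summed Pim RPKM was 52.6 and 64.6 in the TCR libraries and 118 and 124 with TSLP. Without TSLP, Pim2 made up the larger part, 54.6% and 55.6% of the Pim RPKM, and Pim1 36.0% and 34.6%. With TSLP the order was turned, with Pim1 at 48.0% and 49.6% and Pim2 at 42.4% and 40.3%. The ratio of Pim1 to Pim2 RPKM accordingly moved from 0.661 and 0.622 to 1.13 and 1.23. Pim3 kept a small share, 9.41% and 9.80% without and 9.54% and 10.1% with TSLP, ranges that overlap.

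**Figure D1:**
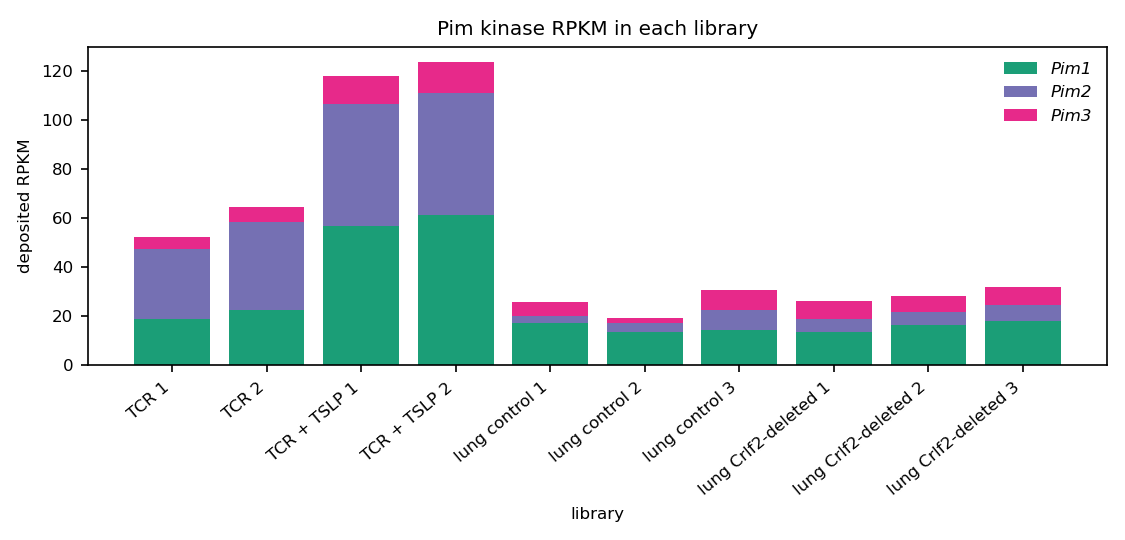
Deposited RPKM of Pim1, Pim2 and Pim3 stacked for each of the 10 libraries (y axis, RPKM; 1 bar a library). The TCR + TSLP bars reach 118 and 124, the TCR bars 52.6 and 64.6, and the lung bars 19.3 to 31.9, with Pim2 a smaller share of every lung bar than of any spleen bar.

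Myc was at 172 and 230 CPM with T cell receptor stimulation alone and at 377 and 394 with TSLP. The TCR libraries were further apart from each other than the TSLP libraries, but neither came near the TSLP values. The log2 fold change was 0.89 (SE 0.13, 95% interval 0.59 to 1.19, adjusted p = 0.00129). In RPKM, Myc stood at 23.1 and 34.3 and then at 66.7 and 69.7, so that with TSLP it matched Ccnd3 (ratio 1 and 0.977), where without it the ratio was 0.510 and 0.647.

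The D cyclins were abundant before TSLP was added. Ccnd2 had 638 and 572 CPM without TSLP and 688 and 739 with it. The groups did not overlap, but the difference did not pass the threshold (log2 0.19, SE 0.10, 95% interval -0.03 to 0.41, adjusted p = 0.142). Ccnd3 had 279 and 294 CPM without and 310 and 333 with TSLP (0.12, SE 0.09, interval -0.08 to 0.32, adjusted p = 0.291). A missed threshold does not show that TSLP left them alone. In RPKM the relation between them hardly moved: Ccnd2 was 43.9% and 40% of the D cyclin sum without TSLP and 43.2% in both libraries with it. Ccnd1, the other D cyclin, was at most 0.198% of that sum in spleen. Cdkn1a rose with TSLP, from 95.2 and 102 CPM to 157 and 153 (log2 0.61, SE 0.09, interval 0.41 to 0.81, adjusted p = 0.00119). Within each group its 2 libraries lay close together.

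**Figure D2:**
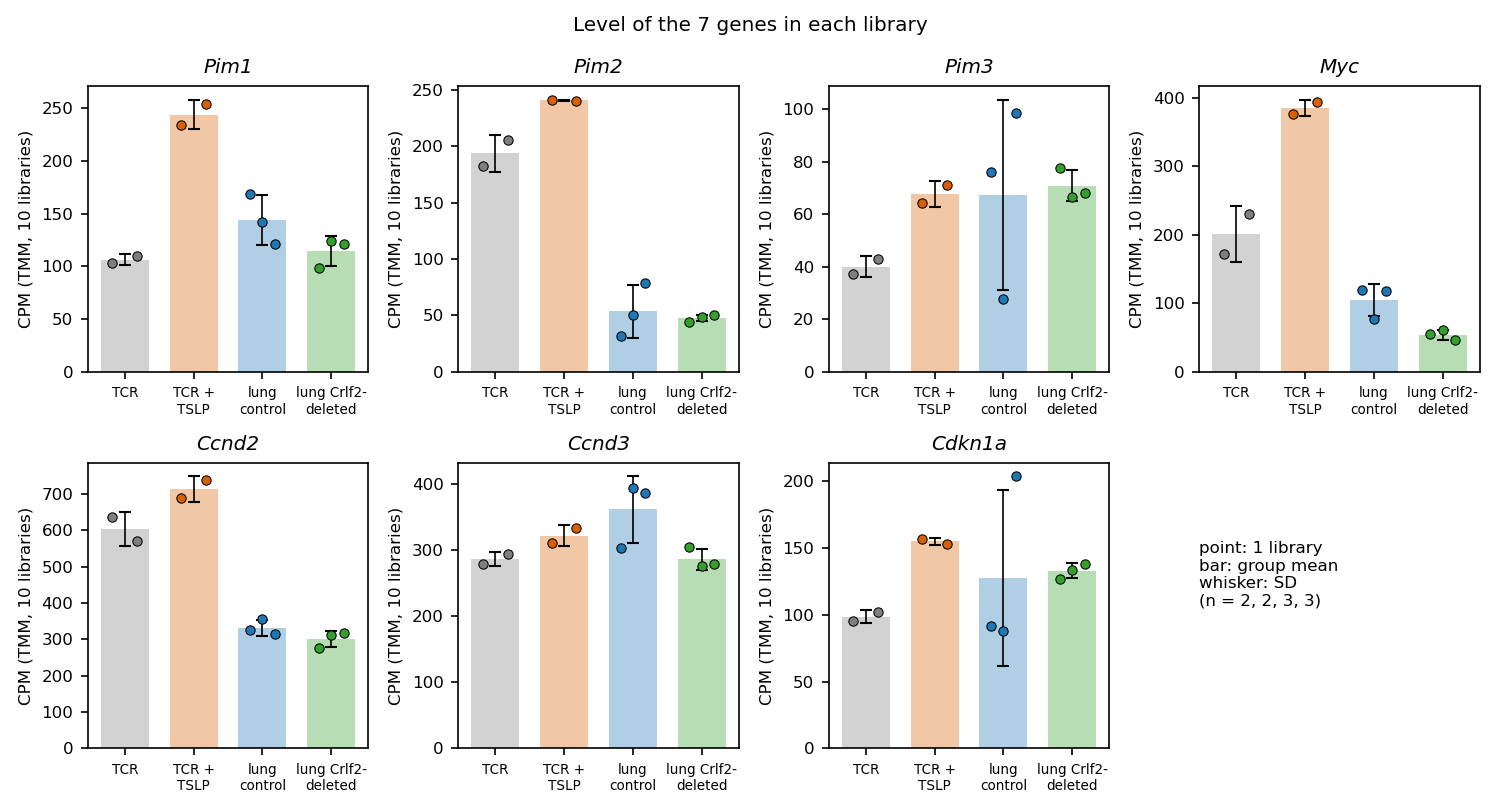
CPM of the 7 genes in each library (y axis, TMM over 10 libraries; points are libraries, bars group means and whiskers SD, n = 2, 2, 3 and 3). The TCR + TSLP points lie above the TCR points for each gene, and Myc is the gene whose 4 groups do not overlap at all.

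The TSLP comparison carried a trend with transcript length that bears on these genes. Median log2 fold changes ran from -1.02 for the 273 tested genes of up to 500 bp to 0.21 for genes of 4000 to 8000 bp. With trends on length and GC content removed, the changes were 1.41 for Pim1, 0.96 for Myc, 0.99 for Pim3, 0.81 for Cdkn1a and 0.56 for Pim2, each still called, and Ccnd3 was called too (0.40, adjusted p = 0.0106). Scaling by library totals alone moved the median of all genes to 0.24 and also called both cyclins (Ccnd2 0.42, adjusted p = 0.00678; Ccnd3 0.35, adjusted p = 0.0091). With all 4 groups in 1 fit, where lung and spleen share an estimate of spread, 2 of the 7 genes were called, Pim1 and Myc. Pim3 (0.75, adjusted p = 0.253), Cdkn1a (0.65, adjusted p = 0.246) and Pim2 (0.31, adjusted p = 0.631) kept their sizes there. Markers of B cells and CD8 T cells were at 114 to 120 and 67.8 to 69.9 CPM in the TCR libraries and at 78.1 to 78.6 and 45.9 to 46.5 with TSLP, which is low beside the 3570 to 3710 CPM of Treg and T cell markers. Of those 8 Treg and T cell markers 1 was called higher and 2 lower with TSLP, so the steady sum hides opposite moves.

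In lung Tregs the comparison asked what is lost when the TSLP receptor gene is deleted, and Myc showed the largest difference of the 7 genes there. Its mean was 105 ± 23.8 CPM in control and 54.0 ± 7.19 in Crlf2-deleted Tregs (SD, n = 3 each), but it missed the threshold narrowly. By edgeR's quasi-likelihood test 0 of the 7 genes were called, against a background of 1.79% called (1.01% lower) of 12717 genes. At an unadjusted p under 0.05 there were 2, Myc and Ccnd3. The share of all genes under that p was not counted, so the 2 have no background beside them. DESeq2 called 1, Myc, and limma on log2(RPKM + 1) called 0, and both called more of all genes in lung than edgeR did. Within the scaling of this comparison 3 genes did not overlap between groups and were lower in all deleted libraries, Myc, Ccnd2 and Ccnd3, against a background of 22.0% not overlapping (11.6% lower). The median log2 fold change of the 7 was -0.20, with -0.04 for all genes.

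The 3 control libraries held 119, 77.3 and 118 CPM of Myc, and the 3 deleted ones 55.1, 60.7 and 46.4. The lowest control value was that of library 2, which holds 123 Myc reads, and it lay above all 3 deleted libraries. The log2 fold change was -0.99 (SE 0.20, 95% interval -1.44 to -0.53, adjusted p = 0.0506). Over the alternatives it ran from -1.13 to -0.46, and the adjusted p from 0.000441 to 0.265. It was called by DESeq2 (-0.97, adjusted p = 0.000441), without a filter (-0.97, adjusted p = 0.0423), among genes of at least 5 RPKM (-1.02, adjusted p = 0.0228) and with all 4 groups in 1 fit (-0.98, adjusted p = 0.0104). DESeq2 and the fit of all 4 groups also called more of all genes than the main fit. Without control library 3, the one with erythroid and other markers, the Myc change was -0.90 (adjusted p = 0.0509). In deposited RPKM the groups overlapped, with 8.98, 5.32 and 10.2 against 5.51, 5.82 and 5.07, and limma gave -0.46 (adjusted p = 0.197). The RPKM scale rests on the authors' library totals, of which the counted reads were 14.95% in control library 2 and 17.89% to 23.6% in the other lung libraries.

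The Pim kinases showed no called difference between the lung groups. Pim1 was at 169, 142 and 121 CPM in control and 98.5, 124 and 121 in deleted libraries, so that the groups overlapped at their edge (log2 -0.35, SE 0.16, interval -0.72 to 0.02, adjusted p = 0.341). Pim2 was at 31.6, 50.3 and 78.8 CPM in control libraries and within 44.4 to 50.1 in all deleted ones (-0.20, SE 0.30, adjusted p = 0.801). Pim3 was at 76.1, 27.6 and 98.5 CPM in control and 66.7 to 77.6 in deleted libraries (0.01, SE 0.37, interval -0.85 to 0.88, adjusted p = 0.992). For Pim2 and Pim3 the control libraries spread over a wider range than the deleted ones and enclosed them. The highest control value of both was in library 3, and the low Pim3 value in library 2 rests on 44 reads. Without control library 3 the direction of Pim2 turned (0.25, adjusted p = 0.62) and Pim3 was at 0.35 (adjusted p = 0.614). Without control library 2 Pim3 turned as well (-0.30, adjusted p = 0.41), so that neither gene has a direction in this comparison.

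In lung Pim1 was the leading kinase per length in all 6 libraries. The Pim2 share of Pim RPKM was 10.8%, 21.0% and 26.0% in control and 19.8%, 19.4% and 20.2% in deleted libraries, and Pim1 made up 46.6% to 69.2% and 51.1% to 58.0%. The Pim1 to Pim2 ratio was 6.21, 3.29 and 1.79 in control libraries, a spread that encloses the 2.59, 2.99 and 2.81 of the deleted ones.

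Ccnd2 was at 326, 357 and 314 CPM in control and 276, 312 and 317 in deleted lung libraries, with a small gap between the group means (log2 -0.16, SE 0.11, interval -0.41 to 0.10, adjusted p = 0.558). Ccnd3 was at 303, 394 and 386 CPM in control and 304, 275 and 278 in deleted libraries (-0.36, SE 0.13, interval -0.66 to -0.05, adjusted p = 0.241). On the scale of all 10 libraries both cyclins overlapped between the groups, by a single library each. The ratio of Myc to Ccnd2 RPKM, in which the library total cancels, was 0.880, 0.521 and 0.904 in control and 0.479, 0.467 and 0.352 in deleted libraries and did not overlap. The ratio of Myc to Ccnd3 did overlap, with 0.325, 0.162 and 0.252 against 0.149, 0.182 and 0.138. Cdkn1a was at 91.5, 88.0 and 204 CPM in control and 127, 134 and 138 in deleted libraries (0.02, SE 0.31, interval -0.69 to 0.73, adjusted p = 0.982). Library 3 alone set the high end: without it Cdkn1a was higher in all deleted libraries than in both controls, at 0.55, short of the threshold (adjusted p = 0.0651), and without library 1 or 2 it was at -0.18 and -0.16.

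**Figure D3:**
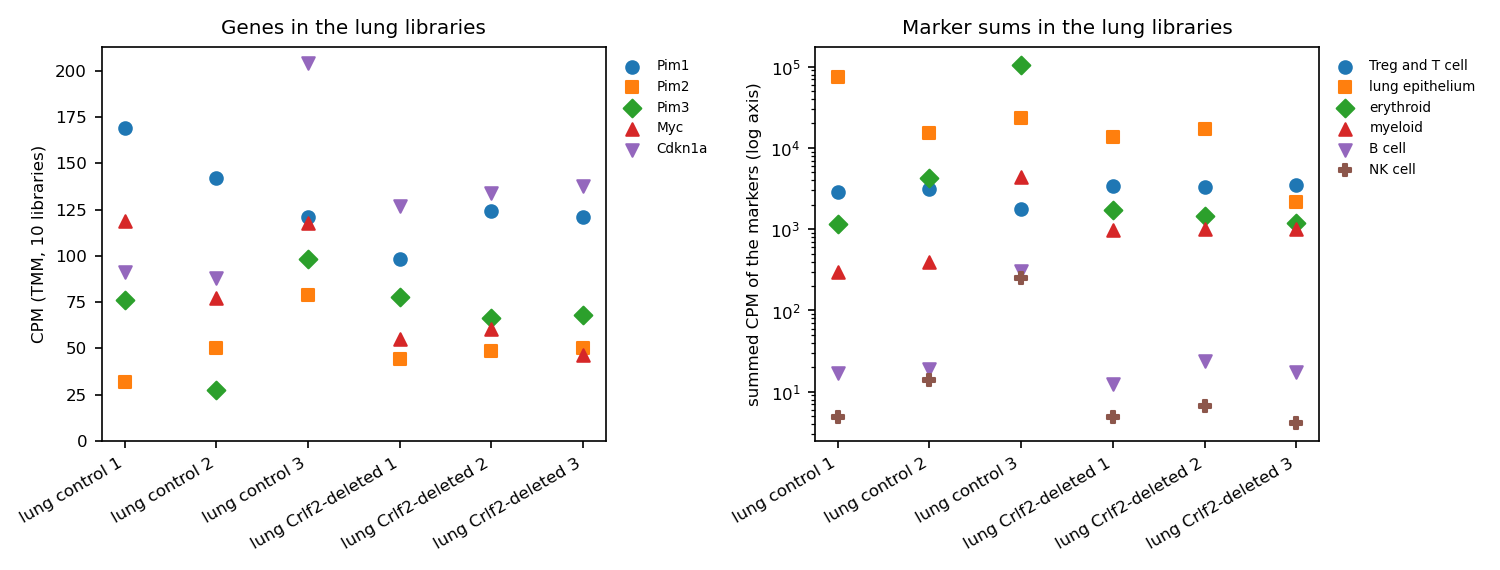
Left, CPM of 5 of the genes in each lung library (linear axis). Right, summed CPM of cell type markers in the same libraries (log axis). Control library 3 has the highest Pim2, Pim3 and Cdkn1a and an erythroid sum of 105000 CPM, and Myc lies lower in each deleted library than in any control.

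Ccnd1 was low in the spleen cultures but not in lung. It held 13.8%, 3.19% and 4.13% of D cyclin RPKM in control and 2.36%, 2.89% and 1.43% in deleted lung libraries, with 1023 reads in control library 1, where the epithelial markers summed to 73800 CPM, and 52 to 466 reads in the others. Its lower mean in deleted libraries was not called (log2 -2.02, SE 0.56, adjusted p = 0.144). The part of epithelial RNA in these Ccnd1 reads was not tested.

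**Figure D4:**
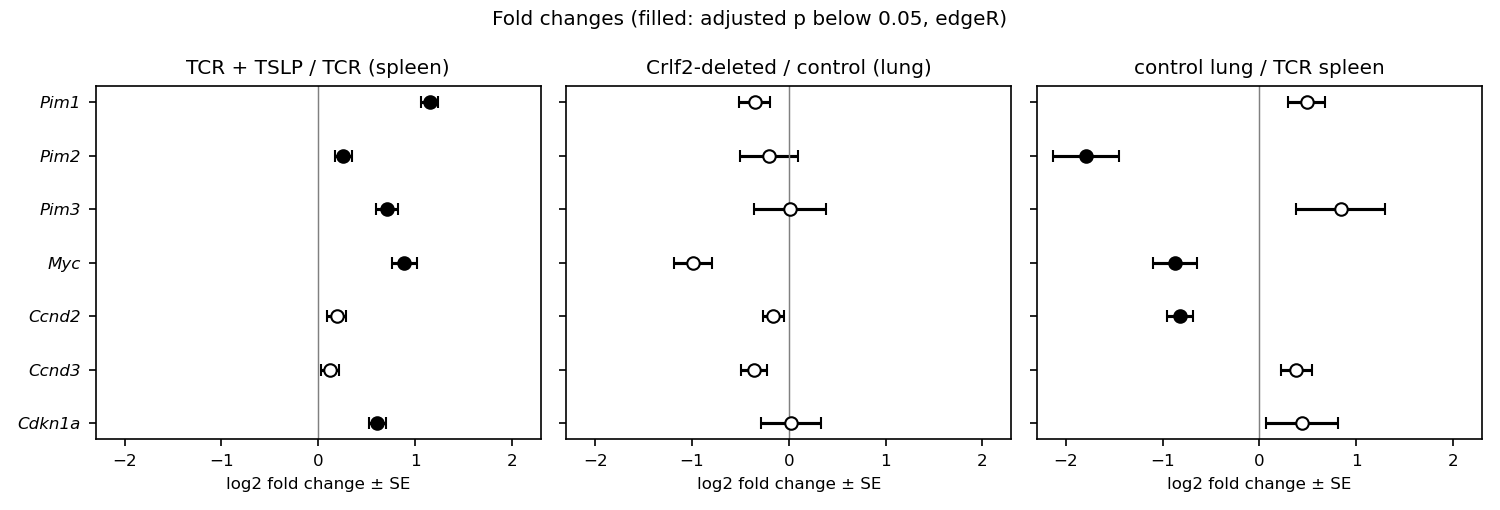
Log2 fold change (x axis) with its SE for the 7 genes in the 3 comparisons, filled where the adjusted p was below 0.05. In the TSLP panel 5 points are filled, none in the lung panel, where Myc lies lowest at -0.99, and 3 in the comparison between tissues.

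Set beside the TCR cultures, control lung Tregs had less Pim2, Myc and Ccnd2. Tissue, culture, stimulation, genotype and depth all differ between these groups and cannot be told apart, and the comparison shares its TCR libraries with the first comparison and its control lung libraries with the second. Of 13325 genes tested, 51.8% were called (25.5% higher, 26.3% lower), and of the 7 genes 3 were called lower and 0 higher. At an unadjusted p under 0.05 there were 5, a threshold that at least the 51.8% called also passed. The groups did not overlap for 5 of the 7, all but Pim3 and Cdkn1a, and for 71.2% of all genes (33.3% higher, 37.9% lower). Pim2 fell from 182 and 205 CPM in the TCR pair to 53.5 ± 23.7 (SD, n = 3) (log2 -1.79, SE 0.34, adjusted p = 0.00396). Myc fell from 201 ± 40.9 CPM (n = 2) to 105 ± 23.8 (n = 3; log2 -0.87, SE 0.23, adjusted p = 0.0154) and Ccnd2 from 605 ± 46.8 to 332 ± 22.4 (-0.82, SE 0.13, adjusted p = 0.00183). The calls on Pim2 and Ccnd2 held under each alternative, and that on Myc was lost among genes of at least 5 RPKM (-0.45, adjusted p = 0.108) and without TCR library 2 (-0.65, adjusted p = 0.162).

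Pim1 (log2 0.49, SE 0.19, adjusted p = 0.0592), Ccnd3 (0.38, SE 0.16, adjusted p = 0.0766), Pim3 (0.84, SE 0.46, adjusted p = 0.16) and Cdkn1a (0.44, SE 0.37, adjusted p = 0.35) were not called. On the RPKM scale their fitted values were below 0, at -0.43, -0.54, -0.22 and -0.57, so none of the 4 has a settled direction between these tissues. By group mean in CPM, Myc was ordered TCR + TSLP, TCR, control lung and deleted lung, with no overlap between any neighbours. Pim2 followed the same order, but both lung groups overlapped. For Ccnd2 the order was the same again, with both lung groups overlapping. Pim1 was highest with TSLP, at 244 ± 13.6 CPM, followed by control lung at 144 ± 23.9, deleted lung at 114 ± 13.9 and TCR at 106 ± 4.66, and the last 3 overlapped as neighbours. Pim3 had overlapping values in TCR + TSLP, control lung and deleted lung, with means of 67.7, 67.4 and 70.9 CPM, and a mean of 40 ± 4.04 CPM in TCR. Ccnd3 had group means of 286 to 361 CPM and Cdkn1a of 98.4 to 155 CPM, with the control lung libraries overlapping each other group for Cdkn1a.

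Outside the 7, the genes of the same pathways were counted from lists of known members. With TSLP, 9 of 17 tested genes of the G1 cyclin, CDK and RB machinery rose and 1 fell, with a median log2 fold change of 0.31. The RB family members Rbl1 (1.16, SE 0.14, adjusted p = 0.000593) and Rb1 (0.70, SE 0.09), which restrain E2F, rose with the cyclin Ccne2 (0.75, SE 0.11), while E2f1 fell (-0.41). Of 7 CDK inhibitors other than Cdkn1a, 0 rose and 2 fell, a share near the 23.1% of all genes called lower. These were Cdkn3 (-0.70, SE 0.10, adjusted p = 0.00141) and the CDK4/6 inhibitor Cdkn2d (-0.41, SE 0.11, adjusted p = 0.0212). Neither fall was called with the length trend removed (Cdkn3 -0.01 and Cdkn2d -0.05), where the list gave 1 rise and 0 falls, as it did by limma on log2(RPKM + 1), and Cdkn2d changed sign with GC removed too (0.05). Of 22 genes that MYC is known to induce, 9 rose and 3 fell (median 0.22). The amino acid transporter Slc7a5 (0.90, SE 0.10, adjusted p = 0.000353), the transcription factor Tfap4 (0.80, SE 0.10) and the transferrin receptor Tfrc (0.58, SE 0.09) rose, and the nucleolar proteins Nop56 (-0.54) and Fbl (-0.57) fell. The falls of this list numbered 1 with the length trend removed and 0 by limma on log2(RPKM + 1), so they depend on the processing. Within the MYC and MAX network 2 of 12 rose and 4 fell, with Mxi1 (0.91, SE 0.10) and Mxd3 (-0.99, SE 0.09), both MYC antagonists, moving in opposite directions. By library totals and by limma on log2(RPKM + 1) this network gave 7 rises and 1 fall, so its split has no settled direction. By the same scalings the MYC-induced list gave 15 and 14 rises. Under them the median of all genes also rose, from 0.01 to 0.24 and 0.20. The falls of the network were 2 and 1 without TSLP library 1 or 2. Its rises were 1 without either TSLP library, 5 without TCR library 1 and 6 without TCR library 2. The falls of CDK inhibitors were 1 without either TSLP library, 4 without TCR library 1 and 5 without TCR library 2, and those of the G1 genes were 4 without TCR library 2.

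Of the other STAT5-induced genes, 8 of 14 rose and 2 fell (median 0.26). The cytokine gene Lif (1.11, SE 0.09, adjusted p = 0.000159) and the IL-2 receptor chains Il2rb (0.86, SE 0.09) and Il2ra (0.63, SE 0.09) rose. Cish rose less (0.26, SE 0.08, adjusted p = 0.0365), and 4 of the 14 were not called. The 2 falls were Bcl6 (-1.26), which STAT5 is also known to repress, and Tnfrsf18 (-0.37, adjusted p = 0.00937). With the length trend removed the list gave 8 rises and 1 fall. PIM substrates and partners gave 2 rises and 1 fall of 13. They gave 6 rises and 1 fall by library totals and 9 rises and 0 falls by limma on log2(RPKM + 1). Those scalings raised the median of all genes as well, to 0.24 and 0.20, so the added rises are not particular to a list. The translation repressor Eif4ebp2 rose (1.03, SE 0.13, adjusted p = 0.00072) and the death-promoting Bad fell (-0.55, SE 0.11), a call lost with the length trend removed (-0.28, adjusted p = 0.0822). Beside Cdkn1a, p53 and its targets gave 11 rises and 1 fall of 18 (median 0.35), with the smallest p for Sesn2 (1.57, SE 0.11, adjusted p = 0.000159), the cyclin Ccng1 (0.67, SE 0.09) and Trp53 itself (0.69, SE 0.12). That count was 4 rises without TSLP library 1 or 2. S and G2/M genes gave 9 rises and 1 fall of 18 (median 0.28), with the helicase subunit Mcm4 (0.89, SE 0.11) and Ccnb1 (0.60, SE 0.10) higher and the thymidylate synthase Tyms lower (-0.60, SE 0.10). Immediate early genes, which culture and handling also switch on, gave 11 rises and 2 falls of 19 (median 0.52), such as Rhob (1.10, SE 0.11), Atf3 (0.98, SE 0.12) and Klf6 (0.81, SE 0.11). Without TSLP library 2 the immediate early genes gave 7 rises, and the S and G2/M genes gave 14 rises without TCR library 2 and by library totals. The PIM list gave 1 rise without either TSLP library and 4 without TCR library 2. With all 4 groups in 1 fit the counts of all 9 lists lay between 0 and 4 rises.

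**Figure D5:**
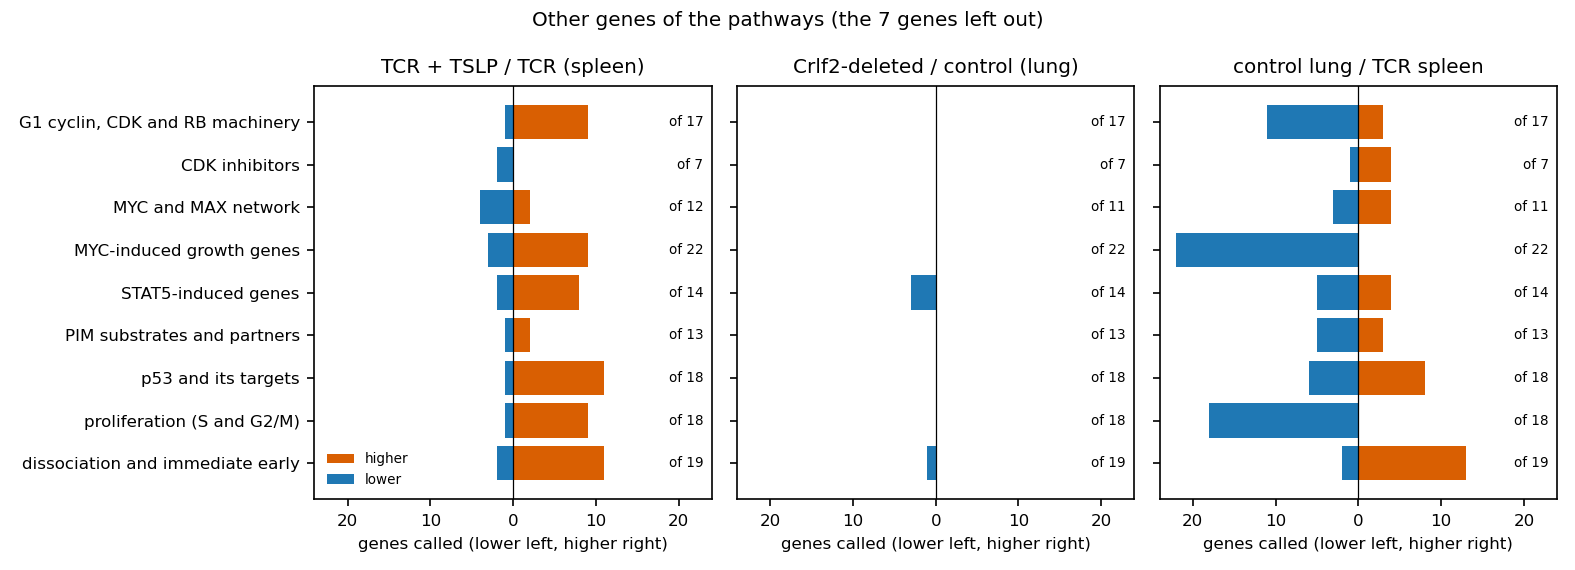
Number of genes called lower (left of 0) and higher (right of 0) in each pathway list, without the 7 genes, for the 3 comparisons. Of all genes tested, 22.7% and 23.1% were called higher and lower with TSLP, 0.771% and 1.01% in the lung comparison and 25.5% and 26.3% between tissues. In lung the longest bar is the 3 genes of the STAT5-induced list, among them Bcl6, which STAT5 can also repress.

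In Crlf2-deleted lung Tregs few of these genes were called. The STAT5-induced list gave 3 falls of 14, the feedback inhibitors Socs1 and Socs3 and the repressor Bcl6. STAT5 is also known to repress Bcl6, which was lower with TSLP as well (-1.26). Socs1 went from 373 ± 88.8 to 171 ± 4.18 CPM within this comparison (log2 -1.12, SE 0.18, adjusted p = 0.0264), Bcl6 from 40.5 ± 4.39 to 19.2 ± 1.04 (-1.07, SE 0.19, adjusted p = 0.0377) and Socs3 from 390 ± 55.1 to 244 ± 15.5 (-0.68, SE 0.13, adjusted p = 0.0492). All 3 calls were lost with library totals alone (adjusted p = 0.0654, 0.0737 and 0.105) and without any 1 library other than control 3. Of the 7 other lists besides immediate early genes, where Socs3 was the call, 0 genes were called by edgeR. At an unadjusted p under 0.05 they held 2 to 7 genes each, with Myc and Ccnd3 counted, and DESeq2 called 0 to 3. The share of all genes under that unadjusted p was not counted. Directions lay mostly one way in several. Of 7 CDK inhibitors other than Cdkn1a, 6 were lower (median -0.50, and -0.02 by limma on log2(RPKM + 1)). Of the 22 MYC-induced genes, 20 were lower in deleted Tregs (median -0.36), though the median was 0.05 by limma on log2(RPKM + 1). Of the 18 S and G2/M genes 17 were lower (median -0.55, and -0.09 by limma). By limma the median of all genes was also higher than by edgeR. Npm1, the MYC-induced gene with the smallest p, was at 125 ± 19.4 and 88.9 ± 5 CPM (-0.49, SE 0.15, adjusted p = 0.156). MYC's partner Max (-0.52, SE 0.12, adjusted p = 0.0859) and its antagonist Mxd1 (-1.03, SE 0.22, adjusted p = 0.0617) were also lower without passing. Without control library 3, immediate early genes gave 4 rises and 1 fall.

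Between control lung and TCR cultures the growth lists moved far more than the 7 genes. All 22 MYC-induced genes were lower in lung (median -2.32), among them Tfrc (-5.36, SE 0.21, adjusted p = 7.43e-06), Ncl (-3.55, SE 0.16) and Npm1 (-3.83, SE 0.20), as were all 18 S and G2/M genes (median -2.04), with Top2a at -3.17 (SE 0.13), Pcna at -3.14 (SE 0.17) and Mki67 at -3.17 (SE 0.22). Of the 17 G1 genes 11 were lower and 3 higher, with Cdk4 at -2.31 (SE 0.15), Cdc25a at -3.05 (SE 0.22) and E2f1 at -2.88 (SE 0.26). CDK inhibitors gave 4 higher and 1 lower of 7, Cdkn2d at 1.36 (SE 0.17), Cdkn1b at 1.08 (SE 0.16) and Cdkn3 at -1.68 (SE 0.33), and the rises of Cdkn2d and Cdkn1b were not called by limma on log2(RPKM + 1) (0.40 and 0.13). The MYC antagonists Mxd1 (3.26, SE 0.24) and Mxd4 (2.53, SE 0.38) and the glucose-responsive factor Mlxip (1.81, SE 0.25) were higher. STAT5-induced genes were split, with 4 higher and 5 lower of 14: Socs3 was at 3.49 (SE 0.21) and Bcl6 at 2.29 (SE 0.27), and the survival gene Bcl2l1 at -1.38 (SE 0.15). Among PIM substrates and partners, 3 were higher and 5 lower of 13, with the chaperones Hsp90aa1 (-2.93, SE 0.14) and Hsp90ab1 (-1.76, SE 0.10) and the initiation factor Eif4b (-2.63, SE 0.17) all lower. The p53 list gave 8 higher and 6 lower of 18, with Btg2 at 2.76 (SE 0.30), Sesn1 at 1.52 (SE 0.22) and Ei24 at -1.92 (SE 0.28). Its split was 1 higher and 8 lower by limma on log2(RPKM + 1), by which most calls among all genes were lower too. Without TCR library 1 or 2 the p53 list gave 3 and 4 higher and the CDK inhibitors 2 in both cases. Without control library 3 the STAT5-induced list gave 7 higher.

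Immediate early genes gave 13 higher and 2 lower of 19 in lung, with the smallest p for Klf6 (3.74, SE 0.17), Dusp1 (7.18, SE 0.35) and Junb (2.98, SE 0.16). Fos stood at 425 to 1230 CPM in the 6 lung libraries and at 7.59 to 14.1 in the 4 spleen libraries. Myc, Pim1, Pim3 and Cdkn1a can themselves be induced rapidly by stimulation, and their levels in lung were read from libraries with this immediate early signal. Its part in them was not tested.

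The 7 genes differed in how alike their patterns over the 10 libraries were. Likeness was measured as the root mean square difference of log2 CPM after centring each gene on its own mean, over 9180 genes. Among the 7 the closest pair was Pim3 and Cdkn1a at 0.36, then Ccnd3 and Cdkn1a at 0.38, and the farthest was Pim2 and Pim3 at 1.31. Pim2 was nearer to Myc (0.54) than to Pim1 (1.02). For each of the 7 the closest genes lay outside them. These were picked from 9180 genes, so their smaller distances say nothing about likeness among the 7. The closest to Pim1 were Lypla1 (0.14), Bcor (0.16) and Tpp2 (0.18), and those to Pim2 were Spcs3 (0.13), Hsp90b1 (0.17) and Apoo (0.19). Pim3 was closest to Cpped1 (0.21), Ngly1 (0.23) and Opa3 (0.24), and Myc to Rap2c (0.21), Zdhhc5 (0.25) and Ireb2 (0.25). Around Ccnd2 stood R3hdm1 (0.08), Sltm (0.09) and Hnrnpr (0.12), and around Ccnd3 Acadl (0.11), Brpf1 (0.12) and Slc11a2 (0.13). For Cdkn1a they were 2310044G17Rik (0.14), 9930104L06Rik (0.15) and Atg5 (0.16). The libraries share tissue and depth, so these values are descriptions.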

How the data were processed

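RNA was sequenced in 10 libraries in 4 groups, taken from the labels. Per the file headers the deposited tables give whole-number read counts for 31682 RefSeq transcripts a library, and the RPKM values were deposited by the authors beside them. The submitters' processing notes list bedtools 2.25.0, TopHat2 2.2.1, edgeR, Bowtie2 2.2.6 and SAMtools 0.1.8, without their roles, and the build mm10 (GRCm38). The strand rule and the handling of multiply mapped reads were not given in the sources used here. Per the labels' protocols, libraries of stimulated Tregs were made with a stranded total RNA kit and sequenced as single 50 bp reads. No separate kit is stated for lung. Whole-gene values of overlapping or near-identical genes are uncertain.

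Per symbol the transcript with the highest mean reads was kept. Counts were tested within each comparison by edgeR 4.0.16 in R 4.3.3 (quasi-likelihood, robust, TMM, filterByExpr with a minimum count of 10, two-sided), with Benjamini-Hochberg adjustment over all genes tested and a threshold of 0.05. SE is the size of the log2 fold change over the root of F. A gene was called where it passed. Alternatives were DESeq2 1.42.0, limma 3.58.1 on log2(RPKM + 1) or log2(RPKM + 0.1), other scalings, filters, transcripts and fits, removal of loess trends (span 0.3) on transcript length and GC, a replicate block, and leaving out each library. On simulated counts the test recovered 80 of 100 2-fold changes with TSLP, 29 of 100 in lung and 15 of 100 between tissues. For 4-fold changes it recovered 92, 70 and 54 of 100. Each simulation changed 200 genes, where 6050 were called with TSLP and 6907 between tissues, so these rates need not hold there. A gene not called may still differ, by as much as its interval allows. In lung that interval reached 2-fold for Myc (-1.44 to -0.53) and not for Ccnd2 (-0.41 to 0.10). Named genes are the 7, Crlf2, up to 3 genes of each list and comparison with the smallest p past the threshold, and the 3 closest patterns to each of the 7. Named outside this rule, after their values were seen, are Cish, Foxp3, Sftpa1, Sftpc, Scgb1a1, Ccnd1, E2f1, Bcl6 and Tnfrsf18 with TSLP, Nop56, Fbl, Max, Mxd1 and Npm1 in the deleted lung Tregs, and Fos. The 7 genes and the lists were chosen with earlier results of these data known. Replicates of a group differed by 6.09 to 172 in chi-square per degree of freedom and were counted separately. Promoter sequences are from RefSeq (GRCm38.p6).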

Additional observations from a re-analysis of the deposited data

How the results depend on the processing

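Genes called with TSLP numbered 6050 and were 3663 among genes of at least 5 RPKM, where fewer genes are tested, 1356 with all 4 groups in 1 fit and 3212 to 8624 without 1 library. In lung 227 were called, and the number was 938 with DESeq2, 873 with all 4 groups in 1 fit, 856 and 804 by limma with pseudocounts of 1 and 0.1, 134 with transcripts summed and 4 to 532 without 1 library. Between tissues 6907 were called, 3482 among genes of at least 5 RPKM and 3467 to 7541 without 1 library. Of the 7 genes, 2 were called with TSLP with all 4 groups in 1 fit. In lung 1, Myc, was called lower with DESeq2, no filter, at least 5 RPKM or all 4 groups. Between tissues 2 were called higher with DESeq2, library totals, at least 5 RPKM or all 4 groups, 1 with median-of-ratios factors or the longest transcript, and 0 to 1 without 1 library. The cause was not tested.

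Pim1 (1.10 to 1.51) and Myc (0.71 to 1.27) kept their TSLP call in all 20 alternatives. In lung directions turned as follows. Library totals gave Pim2 0.00 (0) and Ccnd2 0.01, and at least 5 RPKM gave Pim3 and Cdkn1a -0.03 each. With pseudocounts of 1 and 0.1 limma gave Pim1 0.08 and 0.08, Pim2 0.26 and 0.32, Ccnd2 0.25 and 0.27, and Ccnd3 0.08 and 0.08. Pim3 was -0.03 with length and GC trends removed. Without 1 library Pim3 ran from -0.30 (without control library 2) to 0.35 (without control 3), being -0.05 without deleted library 1. Cdkn1a ran from -0.18 to 0.55 (-0.16 without control library 2) and Pim2 from -0.48 to 0.25. Between tissues limma gave Pim1 -0.43 and -0.46, Pim3 -0.22 and -0.30, Ccnd3 -0.54 and -0.56, and Cdkn1a -0.57 and -0.62. With length and GC trends removed Pim1 was -0.22, Ccnd3 -0.13 and Cdkn1a -0.15, and without 1 library Cdkn1a ran from -0.04 (without control library 3) to 0.65. The cause was not tested.

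Calls split 2999 higher and 3051 lower with TSLP, and 5059 and 2000 by library totals, 5681 and 1249 or 5606 and 1366 by limma, 3087 and 2021 without the length trend and 2740 and 1747 without length and GC trends. In lung the split was 98 and 129, then 137 and 57, 762 and 94 or 719 and 85, 207 and 96, and 183 and 92, in the same order. Between tissues it was 3401 and 3506, and 1179 and 6628 or 1379 and 6392 by limma, 2700 and 4346 without the length trend and 2657 and 4369 without both. The median of all genes moved by limma to 0.20 and 0.33 with TSLP, 0.21 and 0.37 in lung, and -0.45 and -0.87 between tissues.

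Deviations of same-numbered libraries from their group means correlated at r = 0.05, -0.09 and -0.06 in lung and -0.27 in spleen. With 2 libraries a group, the spleen deviations mirror each other, so that value cannot decide on pairing. Whether the numbers pair libraries was not settled. The replicate block gave 5817 calls with TSLP, Pim2 losing its call (0.27, adjusted p = 0.0804), and 121 in lung (32 higher, 89 lower), where Myc was -0.97 (adjusted p = 0.135). The block with the length trend removed gave 4925 and 102, with Pim2 at 0.05 in lung. A crossed block in spleen, added after the data were seen, gave 7107. No block was possible between tissues, where the numbers mark no shared sample. Depth limits control lung library 2, where Pim3 rests on 44 reads and Pim2 on 80.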
